A study of Mus musculus with 27 samples.

Results

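Cxcl1, Cxcl2, Cxcl3 and Cxcl5 encode CXC chemokines with which mouse macrophages call neutrophils to a site of infection. They were chosen by symbol, each gene is read by 1 probe of the array, and they are 4 of the 32138 named genes measured. The study asked how macrophages that had already met a ligand of a Toll-like receptor (TLR) respond when they meet the same ligand again. Bone marrow-derived macrophages (BMDM) were grown for 7 days in L929-conditioned medium from the marrow of female C57BL/6 mice of 6 to 8 weeks, and RNA of each culture was hybridized to a 1-colour Agilent array. Naive BMDM received no ligand. The acute groups received 1 ligand for 4 h: lipopolysaccharide (LPS, a TLR4 ligand) at 100 ng/ml, CpG DNA (TLR9) at 100 µM by the sample labels, Pam3CSK4 (TLR2) at 100 ng/ml or Poly(I:C) (TLR3) at 10 µg/ml. For CpG, the study's methods give another dose. The re-stimulated groups were treated with the same ligand for 24 h, washed, rested and given it again for 4 h. The labels name no genetic change in any group. Of 27 labelled arrays, 25 have deposited values: 3 in each of the 9 groups, but 2 for LPS re-stimulated (replicates 1 and 2) and 2 for Pam3CSK4 acute (replicates 1 and 3). The study's methods describe a replicate both as a single mouse and as a pool of mice, so the p-values below measure the spread between these arrays. All 8 macrophage markers checked were well above background on all 25 arrays, and the probe of Csf1r, the receptor of the macrophage growth factor, was the brightest, which does not rank the genes.

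CXC chemokines of this family carry a glutamate-leucine-arginine motif in front of their paired cysteines and bind CXCR2, the receptor that guides neutrophils out of the blood. In macrophages TLR signals raise their transcription through NF-κB, and proteins that bind AU-rich elements set how long their mRNA lasts. In the tolerant state that follows a long exposure to LPS, many inflammatory genes respond less to a further dose while others respond as before or more. The 4 genes are neighbors on chromosome 5. In the RefSeq annotation of build GRCm38.p6 the order is Cxcl5 (chr5:90759298-90761625), Ppbp, Pf4, Cxcl3 (chr5:90786101-90788093), Cxcl15, Cxcl1 (chr5:90891245-90893121) and Cxcl2 (chr5:90903899-90905938). The array probes lie, in build mm9 of the array files, at chr5:91321845-91321904 for Cxcl1, chr5:91334534-91334593 for Cxcl2, chr5:91216694-91216753 for Cxcl3 and chr5:91190490-91190549 for Cxcl5.

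The promoters are shown because all 4 genes were called higher with acute LPS and NF-κB is a known route from TLR4 to them. RefSeq promoter windows, 250 bases before to 50 bases after the gene's start, were found for 3 of the 4 genes, all on the plus strand. The last 120 bases before the start follow, in lower case, 5′ to 3′, in build GRCm38.p6. Capitals mark matches to the kappa-B letters, GGG, any 3 bases and TTCC, read on either strand and joined where they overlap, and to the TATA letters TATAAA.
Cxcl1, chr5:90891125-90891244: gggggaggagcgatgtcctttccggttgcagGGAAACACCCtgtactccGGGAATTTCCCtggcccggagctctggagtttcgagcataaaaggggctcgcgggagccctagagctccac
Cxcl2, chr5:90903779-90903898: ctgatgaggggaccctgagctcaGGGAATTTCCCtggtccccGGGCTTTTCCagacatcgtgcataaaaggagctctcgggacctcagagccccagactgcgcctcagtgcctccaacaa
Cxcl3, chr5:90785981-90786100: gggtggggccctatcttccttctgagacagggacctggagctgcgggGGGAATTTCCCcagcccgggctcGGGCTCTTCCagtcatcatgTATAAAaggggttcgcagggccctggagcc
All 3 sequences hold the same 11 bases, GGGAATTTCCC, whose first base lies 71 bases before the start in Cxcl1, 97 in Cxcl2 and 73 in Cxcl3. This run holds a match on each strand, and the 2 overlap. Each promoter has a further kappa-B match: GGAAACACCC in Cxcl1, GGGCTTTTCC in Cxcl2 and GGGCTCTTCC in Cxcl3. A kappa-B match occurs in 5.56% of the 32851 promoter windows of this length. TATAAA was found in Cxcl3, 30 bases before the start, and occurs in 13.6% of windows. None of the 3 windows holds the letters searched for AP-1 (TGANTCA, in 7.81% of windows), C/EBP (TTGCNNAA, 10.8%) or the interferon-stimulated response element (GAAA, any 2 bases and GAAA, 3.44%), on either strand. These are letter matches and not sites of binding.

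Before the results, 10 arrays have to be set apart from the other 15. The 3 LPS acute arrays were hybridized on slides of their own and scanned on other days than all the rest. Their file headers also name another version of the array design file. In every comparison that uses them, ligand, slide, scan day and design file version cannot be told apart. The other groups share 3 slides, and the replicate number is the slide. By the study's methods each replicate was prepared independently, so slide and cell preparation cannot be told apart. Differences between slides below can be either. On slide 3, which holds 7 arrays with deposited values, the naive array had 74.6% of its probes above background, against 42.1% to 54.3% on the other 24 arrays. Of 10 neutrophil markers, 4 (S100a9, Ltf, Ly6g and Ngp) separated the arrays of slide 3 and of acute LPS from the other 15, and the ranges of the other 6 overlapped. S100a9, a calcium-binding protein of neutrophils, read 2.69 to 3.29 (log2 intensity) on the LPS acute arrays and 4.57 to 8.08 on slide 3, but 14.25 to 17.57 on the other 15 arrays. Ltf, which encodes lactoferrin of neutrophil granules, was above background on 0 of the 3 LPS acute arrays, 0 of 7 on slide 3 and 15 of the other 15. Ly6g and Ngp encode a surface antigen and a granule protein of neutrophils. Elane, neutrophil elastase, lay at 11.08 to 12.73 over all 25 arrays. The comparisons that include slide 3 are therefore given with and without its arrays. Without it Pam3CSK4 acute is 1 array, which is then assumed to vary like the group it is compared with. In such bulk RNA, fewer cells of a type and less RNA per cell cannot be told apart.

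In naive BMDM the chemokine probes were dim or unsteady. Values are the deposited log2 intensities, in the order of replicates 1, 2 and 3, and levels are compared within a probe only. Where arrays of 1 group are said to lie above, below or apart from those of another, this describes the readings. How many of all probes separate the same groups was not counted. Cxcl1 read 4.22, 5.73 and 9.10, and was above background on replicates 2 and 3. Cxcl2 read 4.85, 6.49 and 9.73. For both genes, replicate 3 on slide 3 was the high array. Cxcl3 read 2.90, 4.10 and 5.76, above background on replicate 3 only. Cxcl5 read 2.24, 2.44 and 2.31 and was above background on none.

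**Figure D1:**
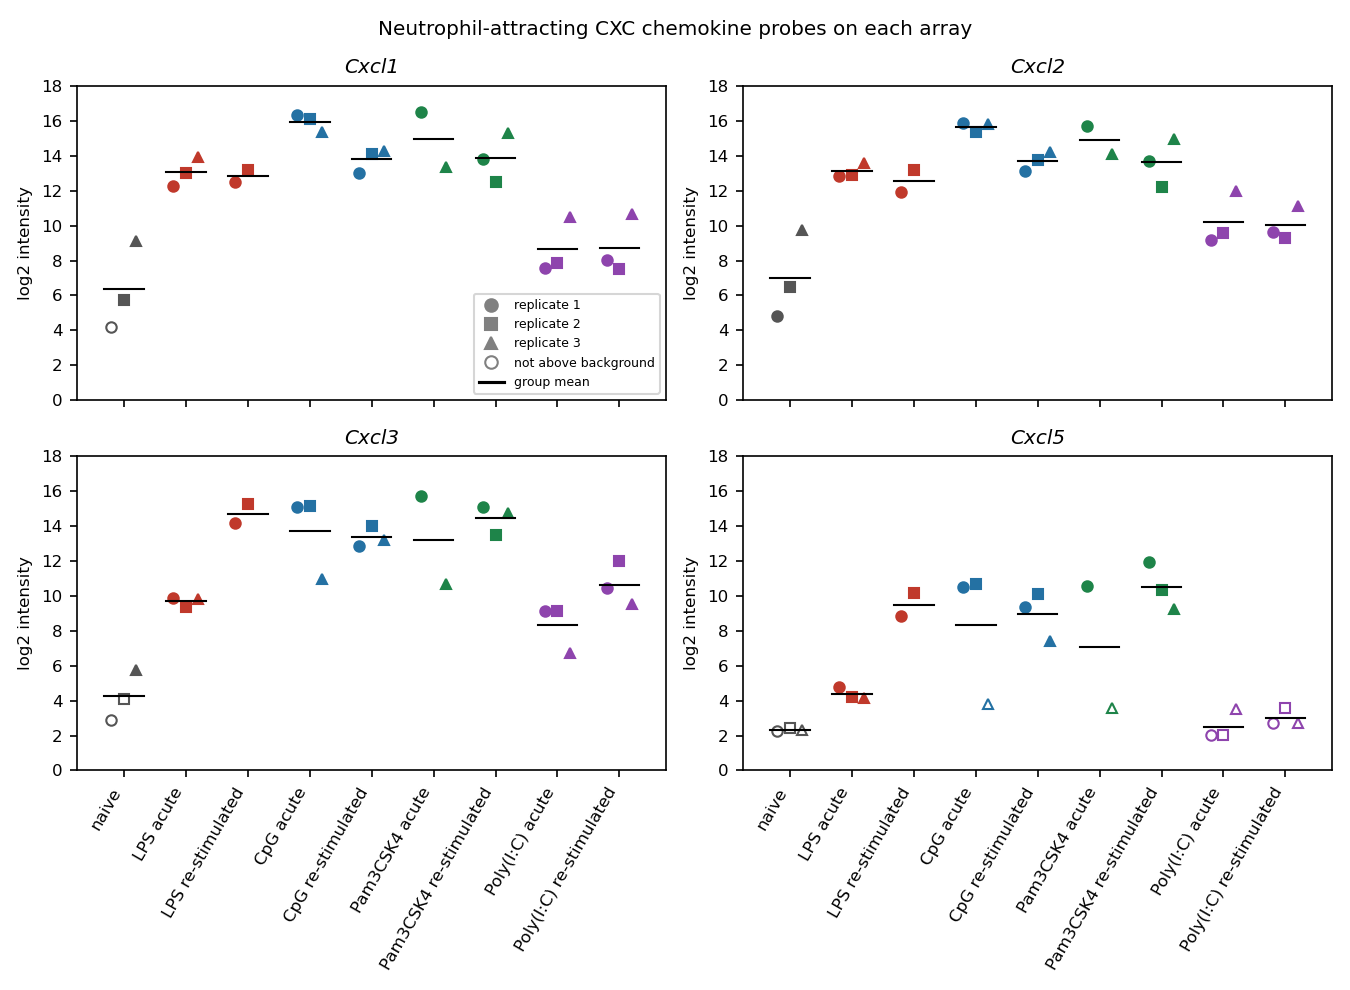
Log2 intensity (vertical axis) of each chemokine probe on every array, by group (horizontal axis); marker shape is the replicate number, open markers are arrays on which the probe was not above background, and bars are group means. For Cxcl5, the CpG and Pam3CSK4 acute arrays of replicate 3 lie at 3.79 and 3.59, below the same groups' other arrays at 10.52 or higher.

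After 4 h of ligand, Cxcl1 and Cxcl2 read higher with LPS, CpG and Pam3CSK4 than on any naive array. Both encode early neutrophil attractants of activated macrophages. With Pam3CSK4 the increases were not called in the fit of 2 groups below, but were called in the fit of all 9 groups. Cxcl1 read 12.25, 13.00 and 13.94 on the LPS arrays, 16.36, 16.10 and 15.39 on the CpG arrays, and 16.51 and 13.38 on the 2 Pam3CSK4 arrays. Under Poly(I:C), Cxcl1 read 7.60, 7.85 and 10.51. The LPS, CpG and Pam3CSK4 arrays lay above all naive arrays, and the Poly(I:C) arrays overlapped them. Cxcl2 read 12.82, 12.91 and 13.59 with LPS, 15.88, 15.34 and 15.80 with CpG, and 15.73 and 14.10 with Pam3CSK4. Cxcl2 read 9.15, 9.56 and 11.98 with Poly(I:C), again with the highest value on slide 3 and overlapping the naive arrays.

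Cxcl3 and Cxcl5 split by replicate number, which is also the slide, within the acute groups that share slides. Cxcl3, another CXCR2 ligand, read 15.10, 15.13 and 10.96 with CpG, and 15.75 and 10.70 with Pam3CSK4. With LPS it read 9.87, 9.38 and 9.83, and with Poly(I:C) 9.14, 9.12 and 6.76. In each of the 3 groups that include slide 3, the array on it was the lowest, and every stimulated array still lay above the naive arrays. Cxcl5, which tissue cells as well as myeloid cells make, read 10.52, 10.69 and 3.79 with CpG, and 10.57 and 3.59 with Pam3CSK4. The last value of each was not above background. With LPS, Cxcl5 was above background on all 3 arrays but dim, at 4.77, 4.18 and 4.17. It was above background on no Poly(I:C) array, at 2.02, 2.03 and 3.50.

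Each acute group was then compared with naive cells by limma, and a probe was called when it changed at least 1.5-fold with an adjusted p below 0.05 over all probes tested. With LPS, 4 of 4 chemokines rose, where 13.2% of the 29933 probes tested rose. The log2 increases were 6.71 (95% interval 3.78 to 9.65, adjusted p = 0.0109) for Cxcl1, 6.08 (3.28 to 8.89, adjusted p = 0.0128) for Cxcl2 and 5.44 (3.78 to 7.10, adjusted p = 0.0034) for Cxcl3. Of 3 naive arrays, 2 had Cxcl1, 1 had Cxcl3 and 0 had Cxcl5 above background. Cxcl3 and Cxcl5 were therefore tested against naive cells only where the ligand group had them above background, here and below. Counts that include them are not to be read as shares of the genes tested. The differences of Cxcl1 and Cxcl3 from naive cells, here and below, are between readings and are not exact folds. Cxcl5 was at least 3.92-fold higher, set against the lowest signal above background on each naive array (adjusted p = 0.0024). In 1 fit of all 9 groups Cxcl5 lost the call (adjusted p = 0.321) and the other 3 held, where 16.7% of probes rose. Without slide 3 all 4 were called, Cxcl1 at 8.09 and Cxcl2 at 7.44, where 17.4% of probes rose, with Cxcl3 and Cxcl5 above background on neither naive array. Scaled by array medians and not by quantiles, with each probe's own variance, none of the 4 was called (adjusted p = 0.0946 to 0.147). Cell markers moved with LPS too: 3 of 10 neutrophil and 1 of 2 mast cell markers fell. Of 3 dendritic cell markers Zbtb46 rose by 6.23, and of 2 T cell markers Lck rose by 4.21. Of 8 macrophage markers 1 rose and 3 fell. Zbtb46 was also called higher with CpG and Poly(I:C). The part of these markers' cells in the chemokine results was not tested. With CpG, Cxcl1 (9.60, interval 6.66 to 12.54, adjusted p = 0.0177), Cxcl2 (8.65, 5.76 to 11.53, adjusted p = 0.0206) and Cxcl3 (9.48, 6.26 to 12.70, adjusted p = 0.0216) rose, where 3.09% of 27954 probes rose. Cxcl5 was not called (adjusted p = 0.121). Its mean gives no bound on the fold, because CpG replicate 3, at 3.79, was not above background. The fit of all 9 groups called Cxcl5 too (adjusted p = 0.0116, with 7.39% of probes higher). With the replicate number as a block, none of the 4 CpG changes was called (adjusted p = 0.0531 to 0.127), where 1.32% of probes rose. Without slide 3 all 4 were called, Cxcl1 at 11.26 and Cxcl2 at 9.94, where 7.7% of probes rose. Cxcl3 and Cxcl5 were then above background on no naive array and their folds have only a lower bound. Median scaling ended the CpG calls too (adjusted p = 0.118 to 0.696).

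With Pam3CSK4, the 3 chemokines tested were higher by 8.60, 7.89 and 8.97 (Cxcl1, Cxcl2 and Cxcl3, log2) but none was called, where 0% of 27843 probes were called in either direction. Every adjusted p was 0.288, which was also the smallest over all probes, while 3458 probes had an unadjusted limma p below 0.05. In 1 fit of all 9 groups these 3 were called (adjusted p = 0.000673, 0.00049 and 0.000658), where 2.76% of probes rose. Without slide 3, with 1 acute array, Cxcl2 was the only one tested and was called, higher by 10.06 (adjusted p = 0.00757), where 5.52% of probes rose. Cxcl5 was not tested because only 1 array was above background. Its readings give no bound on the fold, because the other acute array, at 3.59, was not above background. With Poly(I:C), Cxcl1 (2.30, adjusted p = 0.412), Cxcl2 (3.21, adjusted p = 0.249) and Cxcl3 (4.09, adjusted p = 0.0652) were not called, where 3.80% of 28426 probes rose. The fit of all 9 groups called Cxcl2 and Cxcl3 (adjusted p = 0.0327 and 0.0246, with 7.03% of probes higher). Without slide 3 these 3 were called, Cxcl1 at 2.75 and Cxcl2 at 3.69, where 10.8% of probes rose, with Cxcl3 above background on neither naive array. Leaving out naive replicate 3 alone gave 2 calls with Pam3CSK4 and 2 with Poly(I:C). With each array left out in turn, 0 to 584 of all probes were called with Pam3CSK4 and 183 to 2909 with Poly(I:C). The share in the fits without naive replicate 3 is not given, so these calls are not read as results about the chemokines.

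Across ligands the order of Cxcl1 and Cxcl2 means in acute cells was CpG, Pam3CSK4, LPS, Poly(I:C) and naive. Of the 23 differences between ligand pairs that could be tested, all but Cxcl5 for Pam3CSK4 against Poly(I:C), 4 were called. Cxcl1 was lower with LPS than with CpG by 2.89 (log2, interval 1.79 to 3.99, adjusted p = 0.0318), and Cxcl2 by 2.56 (1.90 to 3.23, adjusted p = 0.0223), where 2.65% of probes were lower. The fit of all 9 groups called neither (adjusted p = 0.0891 and 0.0793) but called Cxcl3 lower (adjusted p = 0.0247), where 6.97% of probes were lower. Cxcl1 was higher with LPS than with Poly(I:C) by 4.41 (2.47 to 6.35, adjusted p = 0.0304, with 3.45% of probes higher) and higher with CpG than with Poly(I:C) by 7.30 (5.39 to 9.21, adjusted p = 0.0455, with 0.0867% of probes higher). The last, the only one of these 4 between arrays of shared slides, did not pass once the replicate number was a block (adjusted p = 0.0938). CpG and Pam3CSK4, the pair with the closest means, differed by 1.00 for Cxcl1, with an interval of -1.34 to 3.35, and by 0.75 for Cxcl2, with an interval of -0.54 to 2.05. Those intervals leave room for a difference in either direction. Without slide 3, 18 of 23 differences were called, 7 of them against the 1 Pam3CSK4 array left. In those fits 19.4% of probes were called for LPS against CpG, 7.69% for LPS against Pam3CSK4, 14.6% for LPS against Poly(I:C), 7.91% for CpG against Poly(I:C), 3.99% for Pam3CSK4 against Poly(I:C) and 0% for CpG against Pam3CSK4.

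**Figure D2:**
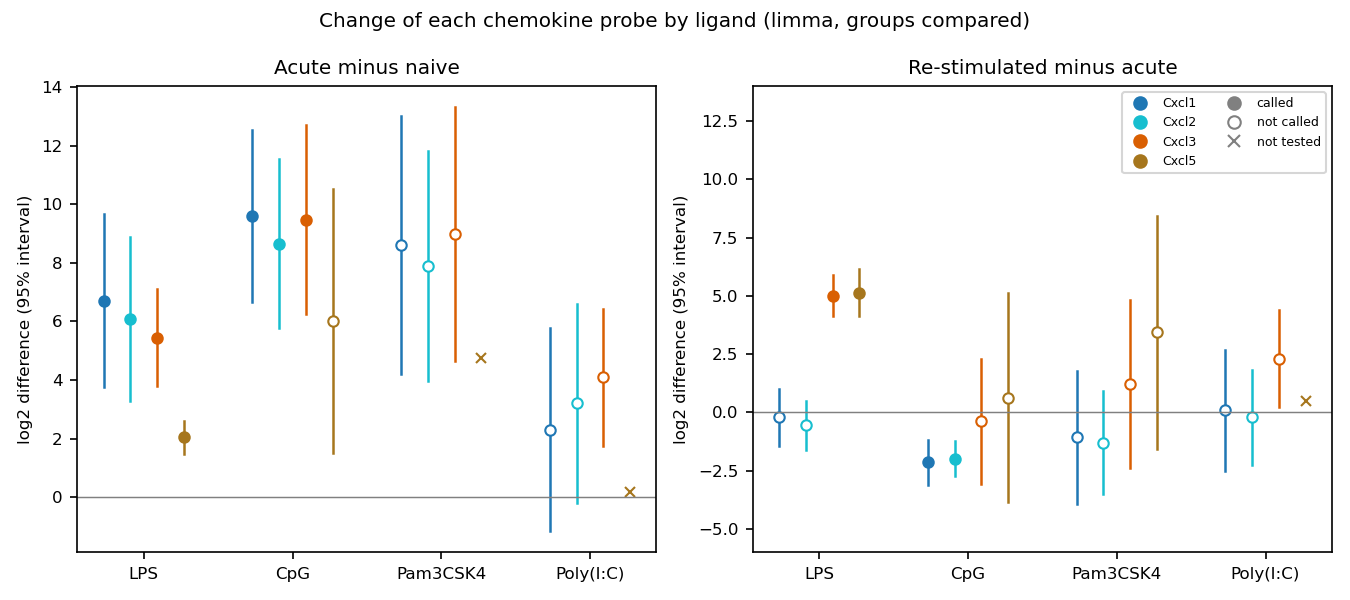
Log2 difference (vertical axis) of each chemokine probe for each ligand (horizontal axis), acute minus naive on the left and re-stimulated minus acute on the right, with 95% limma intervals; filled circles were called, open circles were tested but not called, and crosses were not tested. After LPS re-stimulation Cxcl3 and Cxcl5 lie at 5.01 and 5.13 while the intervals of Cxcl1 and Cxcl2 include 0.

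On re-stimulation, Cxcl1 and Cxcl2 were lower with CpG, while Cxcl3 and Cxcl5 were higher with LPS. Cxcl1 read 12.50 and 13.20 on the 2 LPS re-stimulated arrays, 13.04, 14.13 and 14.25 with CpG, and 13.81, 12.50 and 15.31 with Pam3CSK4. Re-stimulated with Poly(I:C), Cxcl1 read 8.02, 7.54 and 10.66. The CpG arrays all lay below the acute CpG arrays, and for the other ligands the acute and re-stimulated arrays overlapped. Cxcl2 read 11.92 and 13.19 with LPS, 13.13, 13.77 and 14.20 with CpG, 13.71, 12.21 and 14.98 with Pam3CSK4, and 9.62, 9.29 and 11.15 with Poly(I:C). Its CpG arrays too lay below all acute CpG arrays.

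Cxcl3 and Cxcl5 both read higher on the re-stimulated than on the acute LPS arrays. Cxcl3 read 14.16 and 15.25 there, above all 3 acute LPS arrays. It read 12.83, 14.03 and 13.20 with CpG, 15.12, 13.47 and 14.74 with Pam3CSK4, and 10.43, 11.99 and 9.52 with Poly(I:C), where all 3 arrays lay above the acute ones. Re-stimulated Cxcl5 read 8.86 and 10.15 with LPS, 9.37, 10.13 and 7.42 with CpG, and 11.96, 10.32 and 9.28 with Pam3CSK4. All 8 of these arrays were above background. None of the Poly(I:C) arrays was, at 2.74, 3.58 and 2.71.

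By limma, LPS re-stimulation raised Cxcl3 by 5.01 (log2, interval 4.14 to 5.88, adjusted p = 0.0006) and Cxcl5 by 5.13 (4.12 to 6.14, adjusted p = 0.0008) over acute LPS, 2 of 4 genes, where 17.2% of 28592 probes rose. Cxcl1 differed by -0.21 (interval -1.44 to 1.01) and Cxcl2 by -0.55 (-1.60 to 0.49). Neither passed, and the intervals allow a change of 1 log2 unit downward or more. These acute arrays are the ones on slides of their own, and with the 27 arrays normalized together, which adds replicate 3 of LPS re-stimulated cells that the authors left out, none of the 4 was called. The added array read 11.93 for Cxcl3 and 3.63 for Cxcl5. Over the alternatives run for them, the lowest increase was 3.97 for Cxcl3 and 2.99 for Cxcl5. Neutrophil markers moved the same way: 6 of 9 tested rose with a median of 5.11, among them S100a9, at least 3997-fold, and Ly6g, a surface antigen of neutrophils, at least 506-fold. Markers of other cells moved too. Of 2 fibroblast markers tested, Dcn, which encodes decorin, rose by 3.63 (adjusted p = 0.0034), and Col1a2 was at -0.60 and not called. The log2 sum of the 5 fibroblast markers went from 6.70, 6.52 and 7.76 on the acute arrays to 9.51 and 8.89. Lck, Cd79a and Epor, of the T cell, B cell and erythroid lists, fell by 3.07, 0.85 and 1.43. Of 8 macrophage markers 2 rose, Csf1r by 1.07 and Fcgr1 by 1.29, and 2 fell, Itgam by 1.03 and Mertk by 3.14. Of 3 dendritic cell markers Flt3 rose by 2.00, while Zbtb46 fell by 4.56 and Itgax by 2.13. The part of these markers' cells in the Cxcl3 and Cxcl5 results was not tested.

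With CpG, Cxcl1 fell by 2.14 (log2, interval 1.18 to 3.10, adjusted p = 0.0454) and Cxcl2 by 1.97 (1.23 to 2.72, adjusted p = 0.0350), where 1.71% of 25739 probes fell. Neither was called in the fit of all 9 groups (adjusted p = 0.262 for Cxcl2 and higher for Cxcl1), where 2.53% of probes fell. With the replicate block Cxcl2 alone was called (adjusted p = 0.0449, with 2.15% of probes lower), and Cxcl1 had an adjusted p of 0.0732. Cxcl3 differed by -0.37 (interval -3.05 to 2.30) and Cxcl5, which 2 of the 3 acute arrays measured above background, by 0.64 (-3.84 to 5.12). Without slide 3, Cxcl1 fell by 2.65 and Cxcl2 by 2.16, both called, where 3.96% of probes fell, and Cxcl3 was at -1.68 (adjusted p = 0.0868). With Pam3CSK4, Cxcl1 differed by -1.07, Cxcl2 by -1.29, Cxcl3 by 1.22 and Cxcl5, above background on 1 of 2 acute arrays, by 3.43 (interval -1.57 to 8.44), and none was called, where 0% of 25430 probes were. Without slide 3, with 1 acute array, none was called either, where 3.89% of probes were, and Cxcl1 was at -3.35 (adjusted p = 0.0549). With Poly(I:C), none of the 3 tested was called, where 2.31% of 27139 probes rose. Cxcl3 was higher by 2.31 (interval 0.23 to 4.39, adjusted p = 0.158). The block on the replicate number called it (adjusted p = 0.0462, with 3.11% of probes higher). Without slide 3 it was higher by 2.08 (adjusted p = 0.0598, with 14.1% of probes higher).

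For Cxcl3 and Cxcl5 the direction under CpG differed between slides. From acute to re-stimulated, Cxcl3 changed by -2.27 on slide 1 and -1.10 on slide 2 but by 2.25 on slide 3. Cxcl5 changed by -1.15 and -0.55 on slides 1 and 2, and on slide 3 went from 3.79, not above background, to 7.42. With Pam3CSK4, Cxcl3 changed by -0.63 on slide 1 and 4.04 on slide 3. Cxcl5 changed by 1.39 on slide 1, and on slide 3 went from 3.59, not above background, to 9.28. Cxcl1 with Pam3CSK4 changed by -2.70 on slide 1 and 1.93 on slide 3. With Poly(I:C), Cxcl3 was higher on all 3 slides, by 1.29, 2.87 and 2.76.

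**Figure D3:**
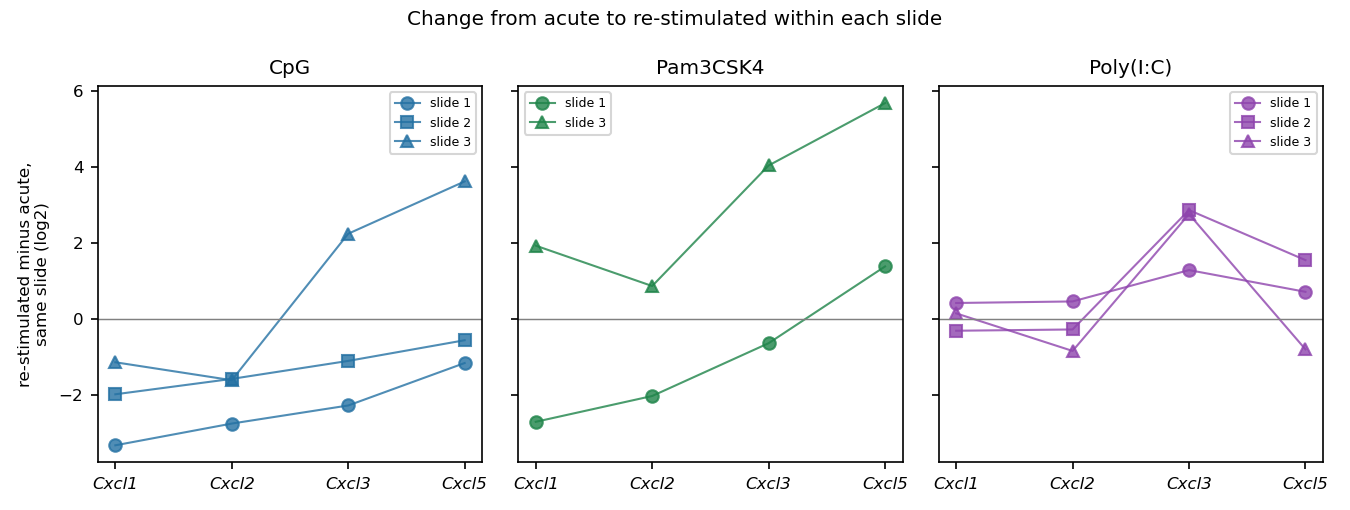
Re-stimulated minus acute log2 intensity on the same slide (vertical axis) for each chemokine (horizontal axis), for CpG, Pam3CSK4 and Poly(I:C); each line is 1 slide. Cxcl3 lies above Cxcl1 and Cxcl2 on all 8 lines; Cxcl5 was not above background on any Poly(I:C) array, nor on the acute CpG and Pam3CSK4 arrays of slide 3, so its points there are not exact changes.

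On every slide the change of Cxcl3 from acute to re-stimulated cells lay above that of Cxcl1 and that of Cxcl2. This comparison was chosen after the values were seen. Over the 8 slide pairs of CpG, Pam3CSK4 and Poly(I:C), the change of Cxcl3 exceeded that of Cxcl1 by 2.02 on average (log2), from 0.86 to 3.38, in 8 of 8 pairs. Against Cxcl2 the mean excess was 2.11, in 8 of 8 pairs. The 8 pairs come from 3 slides. Over the group means of all 4 ligands the excess was 2.87 over Cxcl1 and 3.05 over Cxcl2. Without slide 3, with 1 acute Pam3CSK4 array, it was 2.53 over Cxcl1, and without LPS, whose acute arrays are on slides of their own, 2.09. Within single ligands the excess over Cxcl1 was 5.22 with LPS, 1.77 with CpG, 2.29 with Pam3CSK4 and 2.22 with Poly(I:C). These sizes are a description, with no test.

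Cxcl5 could be compared for 3 ligands, with 2 acute arrays, CpG and Pam3CSK4 replicate 3, not above background, so the sizes that follow are not exact. Its change exceeded that of Cxcl1 by 4.21, or by 3.64 without LPS. Cxcl2 and Cxcl1 changed by amounts that differed by -0.17, and Cxcl5 and Cxcl3 by 1.12.

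Whether a gene's change on re-stimulation differed between ligands was tested in 1 limma fit of all 9 groups. None of 24 differences was called, where of 30814 probes 6.35% were called for LPS against CpG, 7.2% for LPS against Pam3CSK4 and 3.61% for LPS against Poly(I:C). The 24 include Cxcl5 against Poly(I:C). Cxcl5 was above background on no Poly(I:C) array, so its change with that ligand was not measured. For the pairs without LPS the shares were 0.00325% (CpG and Pam3CSK4), 0.0357% (CpG and Poly(I:C)) and 0.101% (Pam3CSK4 and Poly(I:C)). The largest was Cxcl3, whose change with LPS exceeded that with CpG by 5.38 (interval 1.68 to 9.08, adjusted p = 0.0739). Without slide 3, the LPS change exceeded the CpG change by 6.69 for Cxcl3 and by 5.98 for Cxcl5, where 10.9% of probes were called higher. Calls were gained in other pairs too, with 1 acute Pam3CSK4 array left. The share of all probes is not given for those pairs, so they are not read as results about the chemokines. Every change with LPS carries the slides of the acute LPS arrays.

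Set against naive cells, all 4 chemokines were called higher in re-stimulated CpG and Pam3CSK4 cells, and Cxcl3 and Cxcl5 in re-stimulated LPS cells. These comparisons share the naive arrays with the acute ones. Cxcl3 and Cxcl5 were again tested only through the ligand group, so the counts below carry the same limit. With CpG 4 of 4 were called, where 6.65% of 28176 probes rose, at 7.46 for Cxcl1, 6.67 for Cxcl2 and 9.10 for Cxcl3 (log2, adjusted p = 0.0187, 0.0228 and 0.0041), and Cxcl5 was at least 94.96-fold higher (adjusted p = 0.0065). With Pam3CSK4 4 of 4 were called, where 2.61% of 27945 probes rose, at 7.53, 6.61 and 10.19 for Cxcl1, Cxcl2 and Cxcl3, and Cxcl5 was at least 277-fold higher. All 4 lost the call with the replicate block (adjusted p = 0.0546 to 0.0598, with 0.0215% of probes higher). With LPS, Cxcl3 (10.45, adjusted p = 0.0148) and Cxcl5 (at least 137-fold, adjusted p = 0.0085) were called, where 3.27% of 27915 probes rose, and Cxcl1 was at 6.50 (adjusted p = 0.0726) and Cxcl2 at 5.53 (adjusted p = 0.0990). The fit of all 9 groups called all 4 with LPS (adjusted p = 0.0017 for Cxcl1 and 0.00186 for Cxcl2), where 8.44% of probes rose. With Poly(I:C), 1 of 3 tested was called, where 4.79% of 28411 probes rose. It was Cxcl3, at 6.40 (adjusted p = 0.0162, or 0.0510 with the block, where 3.65% of probes rose). Without slide 3, the counts were 4 with LPS, 4 with CpG, 4 with Pam3CSK4 and 3 with Poly(I:C), where 11.7%, 11.4%, 10.3% and 12.8% of probes rose. With median scaling the counts were 0, 1, 0 and 0, the 1 being Cxcl3 with CpG (adjusted p = 0.0412).

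Between ligands, 7 of 24 differences among re-stimulated groups were called, and every one was against Poly(I:C). Cxcl5 was above background on no Poly(I:C) array, so it was tested there only through the other ligand's group. Cxcl5 was at least 90.1-fold higher with LPS (adjusted p = 0.0266, with 0.549% of probes higher, or 0.0715 and 0.73% in the fit of all 9 groups, where it was not called), at least 62.4-fold with CpG (adjusted p = 0.0216, 0.573% higher) and at least 182-fold with Pam3CSK4 (adjusted p = 0.0037, 0.869% higher). Cxcl1 was higher than with Poly(I:C) by 5.07 with CpG (adjusted p = 0.0391) and by 5.13 with Pam3CSK4 (adjusted p = 0.0453). Cxcl2 was higher by 3.68 with CpG (adjusted p = 0.0296), and Cxcl3 by 3.79 with Pam3CSK4 (adjusted p = 0.0386). With the replicate block, the CpG calls of Cxcl1 (adjusted p = 0.0696) and Cxcl2 (0.0521) and the Pam3CSK4 call of Cxcl3 (0.116) were lost, and Cxcl2 with Pam3CSK4 was gained (0.0235). With it 0.0494% of probes were higher with CpG and 0.173% with Pam3CSK4. CpG and Pam3CSK4 re-stimulated cells differed by -0.07 for Cxcl1 (interval -1.76 to 1.63) and by -1.55 for Cxcl5 (-3.65 to 0.56). Neither those intervals nor the calls show the ligands to act alike. Without slide 3, 11 of the 24 were called, again all against Poly(I:C), where 6.29% of probes were called for LPS, 18.2% for CpG and 22.5% for Pam3CSK4.

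Over the 9 groups, the order of levels of Cxcl1 ran from CpG acute (mean 15.95 ± 0.50, SD, n = 3) through Pam3CSK4 acute, Pam3CSK4 re-stimulated, CpG re-stimulated, LPS acute and LPS re-stimulated to Poly(I:C) re-stimulated, Poly(I:C) acute and naive (6.35 ± 2.50). Only the step from LPS re-stimulated to Poly(I:C) re-stimulated separated all arrays of neighbors. For Cxcl2 all neighbors in the order overlapped. For Cxcl3 the highest group was LPS re-stimulated (14.70 ± 0.77, SD, n = 2), then Pam3CSK4 re-stimulated (14.44 ± 0.86, SD, n = 3), and the steps from LPS acute to Poly(I:C) acute and from there to naive separated all arrays. For Cxcl5 the highest was Pam3CSK4 re-stimulated (10.52 ± 1.35, SD, n = 3), and the step from LPS acute to Poly(I:C) re-stimulated separated all arrays.

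The chemokine probes varied more between replicates than most probes. Their pooled SD within groups was 1.49 for Cxcl1, 1.28 for Cxcl2, 1.55 for Cxcl3 and 2.03 for Cxcl5, against a median of 0.41 over 30814 probes. Between 98.5% and 99.8% of probes varied less. Over the 25 arrays, Cxcl1 and Cxcl2 were tightly linked (r = 0.98 for levels and 0.95 for deviations from the group means), and Cxcl3 and Cxcl5 less so (0.86 and 0.75). By ranks, the deviations correlated at 0.94 for Cxcl1 with Cxcl2 and 0.53 for Cxcl3 with Cxcl5. Cxcl5 was above background on 14 of the 25 arrays. Across the pairs, deviations of Cxcl1 with Cxcl3 correlated at 0.33, and of Cxcl2 with Cxcl5 at 0.13. These correlations describe arrays that share slides and carry no test.

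Neutrophil markers and the chemokines varied together in part. The log2 summed intensity of 10 neutrophil markers, of which 4 were above background on all 25 arrays, 0 were absent from all and the S100a8 probe had the highest mean signal, which does not rank the genes, ranged from 12.4 to 12.7 on the LPS acute arrays. It was 12.5 to 12.9 on 5 arrays of slide 3, 15.0 and 15.8 on the CpG and Pam3CSK4 re-stimulated arrays of slide 3, and 15.9 to 18.1 on the other 15 arrays. Those 2 re-stimulated arrays owed their sum to S100a8, at 14.83 and 15.66, while S100a9 was 5.65 and 5.93 there. Deviations from group means correlated with those of the marker sum at -0.37 for Cxcl1, -0.51 for Cxcl2, 0.65 for Cxcl3 and 0.59 for Cxcl5 (25 arrays, a description). With the mast cell sum they were -0.46, -0.61, 0.54 and 0.50, and with the megakaryocyte sum -0.44, -0.57, 0.54 and 0.54, in the same order. With the fibroblast sum the signs were reversed, at 0.36, 0.49, -0.35 and -0.39. With the macrophage sum the correlations were 0.52, 0.38, 0.19 and 0.16. On slide 3, where S100a9 was low in both states, Cxcl3 read 10.96 and 13.20 and Cxcl5 3.79 and 7.42 in acute and re-stimulated CpG cells. Between these same arrays S100a8 went from 11.36 to 14.83, Camp from 8.79 to 10.79 and the marker sum from 12.8 to 15.0. In naive and Poly(I:C) cells of slides 1 and 2, where S100a9 was high, Cxcl5 stayed at 3.58 or below and was not above background. The part of other cells in the chemokine levels was not tested. The mast cell sum was 4.24 to 4.66 on slide 3 and with acute LPS and 4.61 to 8.30 on the other 15 arrays. The megakaryocyte sum was 12.7 to 15.8 and 15.2 to 17.4, so for both lists the ranges overlapped.

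**Figure D4:**
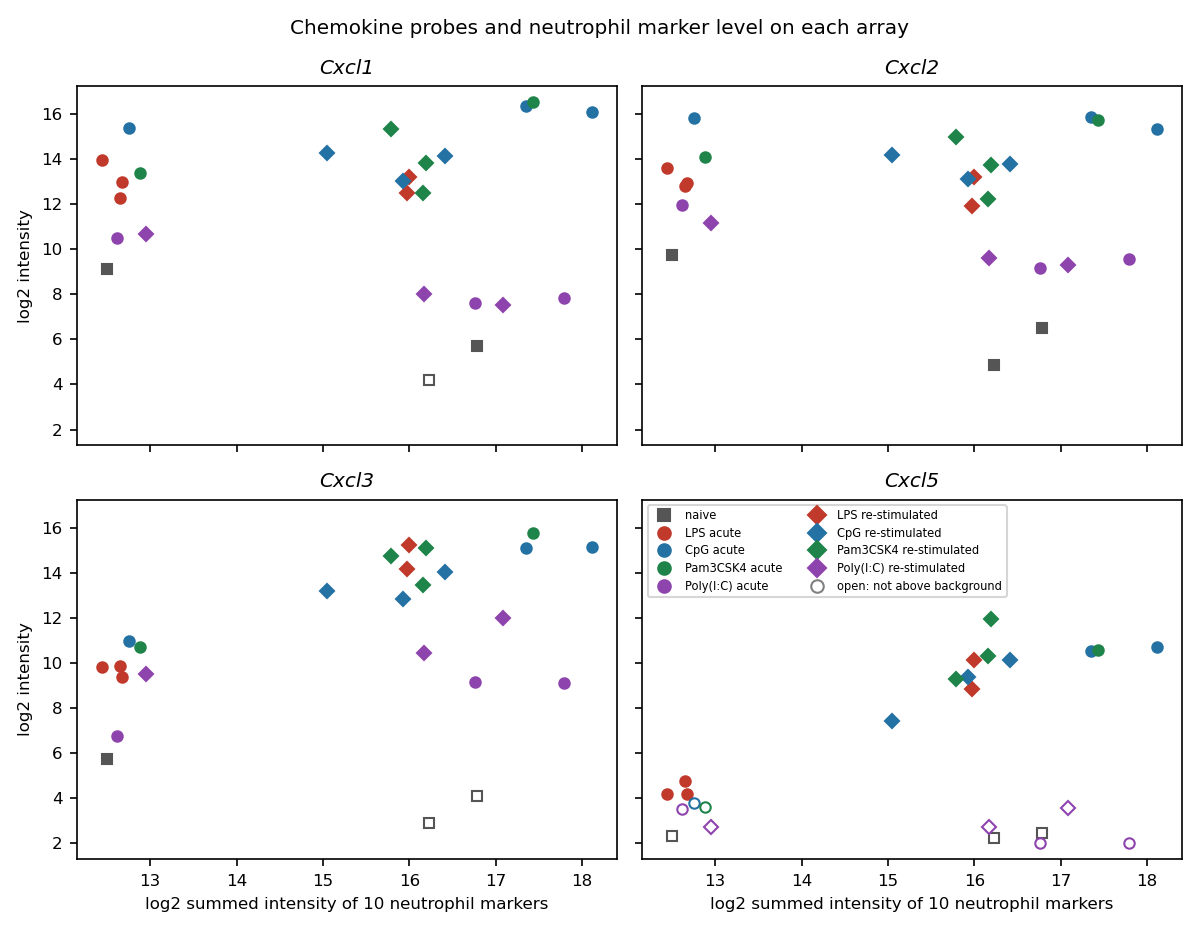
Log2 intensity of each chemokine probe (vertical axes) against the log2 summed intensity of 10 neutrophil markers (horizontal axes), 1 point per array, colored by ligand and shaped by state; open points were not above background. Every array with Cxcl5 above 7 has a marker sum of 15.0 or more, while naive and Poly(I:C) arrays with sums over 16 keep Cxcl5 not above background.

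Counts over related genes are to be read against all probes tested. In the acute comparisons 13.2% rose and 13.2% fell with LPS, 3.09% rose and 2.63% fell with CpG, none was called with Pam3CSK4, and 3.80% rose and 2.23% fell with Poly(I:C). From acute to re-stimulated cells 17.2% rose and 17% fell with LPS, 1.85% rose and 1.71% fell with CpG, and 2.31% rose and 2.62% fell with Poly(I:C). From naive to re-stimulated cells 3.27% rose and 2.39% fell with LPS, 6.65% and 6.45% with CpG, 2.61% and 2.74% with Pam3CSK4, and 4.79% and 4.23% with Poly(I:C). The fit of all 9 groups called more probes in most comparisons. From naive to re-stimulated cells 8.44%, 9.89%, 7.97% and 9.45% rose in it with LPS, CpG, Pam3CSK4 and Poly(I:C), and 2.76% rose and 2.45% fell with acute Pam3CSK4.

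The other ligands of the chromosome 5 cluster and the receptors passed the threshold in few comparisons. Ppbp and Pf4, platelet chemokines that macrophages can also express, were called in none of the 4 acute comparisons. Both rose from acute to re-stimulated LPS, Ppbp at least 12.9-fold (adjusted p = 0.0002) and Pf4 by 3.25 (log2, adjusted p = 0.0022). Both are on the megakaryocyte list, of which Gp9 fell at least 9.25-fold in the same comparison (adjusted p = 0.0325). Cxcl15 was above background on no array. Cxcr2, the receptor of the 4 chemokines, was called lower with acute LPS (adjusted p = 0.0291), but not in the fit of all 9 groups. Its readings give no bound on the fold, because naive replicate 1 was not above background. Cxcr2 is on the neutrophil list. Cxcr1, the related receptor, was above background on no array and Ackr1, a decoy receptor, on 1 array.

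Among 8 other CXC chemokines, Cxcl9 and Cxcl10, interferon-induced attractants of T cells, rose with LPS, CpG and Poly(I:C). Cxcl9 was at least 908-fold higher with acute LPS, 104-fold with CpG and 1433-fold with Poly(I:C), and Cxcl10 rose by 9.84, 8.04 and 9.57 (log2). With LPS, Cxcl14 fell by 2.52. No member of this list was called with Pam3CSK4, and 2 were higher in the fit of all 9 groups. On LPS re-stimulation Cxcl10 fell by 2.28 and Cxcl9 by 1.97, the latter not called in the fit of all 9 groups, and Cxcl16, a membrane-bound chemokine, rose by 1.13. No other ligand's re-stimulation changed a member of this list past the threshold. Against naive cells, 3, 2, 1 and 3 of 5 were higher after re-stimulation with LPS, CpG, Pam3CSK4 and Poly(I:C).

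Of 8 cytokines that raise neutrophil numbers or induce these chemokines, 5 rose with LPS, 5 with CpG, 0 with Pam3CSK4 and 1 with Poly(I:C), and none fell. The numbers tested were 5, 7, 4 and 3. A gene dim in naive cells was tested only where the ligand group had it above background. The counts are therefore not to be read as shares of the genes tested. In the fit of all 9 groups 4, 7, 4 and 2 rose, with Csf2 lost for LPS. The largest were Il6 (12.89), Tnf (6.46) and Il1b (6.31) with LPS, and Il6 (11.81), Il1b (9.65) and Tnf (6.84) with CpG. Il6 alone, at 9.20, rose with Poly(I:C). On LPS re-stimulation 2 of 6 rose and 3 fell, where 17% of all probes fell. Il1b, whose product drives neutrophil recruitment, rose by 3.52, while Il6 fell by 4.79 and Tnf by 3.22. Il1b also rose with Poly(I:C), by 3.68 (adjusted p = 0.0392), and none of this list was called on re-stimulation with CpG or Pam3CSK4. Against naive cells, 3, 6, 5 and 3 were higher after re-stimulation with LPS, CpG, Pam3CSK4 and Poly(I:C). The numbers tested there were 5, 6, 6 and 4, with the same limit.

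The NF-κB list of subunits, inhibitors and kinases had 14 genes, all tested against naive cells in the acute groups. With LPS 10 rose, with a list median of 2.34 against -0.01 for all probes tested. With CpG 7 rose (list median 2.14, all probes -0.07), with Pam3CSK4 0 (2.05, all probes 0.01) and with Poly(I:C) 5 (1.56, all probes -0.10), and none fell. The fit of all 9 groups called 10, 12, 8 and 7 higher with LPS, CpG, Pam3CSK4 and Poly(I:C). The largest were Rel (4.63), a subunit, Nfkbie (3.60), an inhibitor, and Tnfaip3 (3.58), which encodes the feedback inhibitor A20, with LPS. With CpG they were Tnfaip3 (4.01), Nfkbie (3.49) and Nfkbia (3.29). They were Nfkbie (3.60), Tnfaip3 (2.65) and Nfkb1 (1.96) with Poly(I:C). On LPS re-stimulation 6 fell and none rose: Rel by at least 15.6-fold, Nfkbiz, a coactivator of secondary response genes, by 3.23 and Tnfaip3 by 1.72 (log2). The share of all probes that fell was 17%, and the fit of all 9 groups called 4 lower and 1 higher, where 14.3% of probes fell and 15.6% rose. Nfkb1 (-1.64) and Tnfaip3 (-1.31) fell on CpG re-stimulation, and none was called with Pam3CSK4 or Poly(I:C). Against naive cells 3, 7, 2 and 5 of 13 were higher after re-stimulation with LPS, CpG, Pam3CSK4 and Poly(I:C), and 7, 9, 7 and 7 in the fit of all 9 groups.

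**Figure D5:**
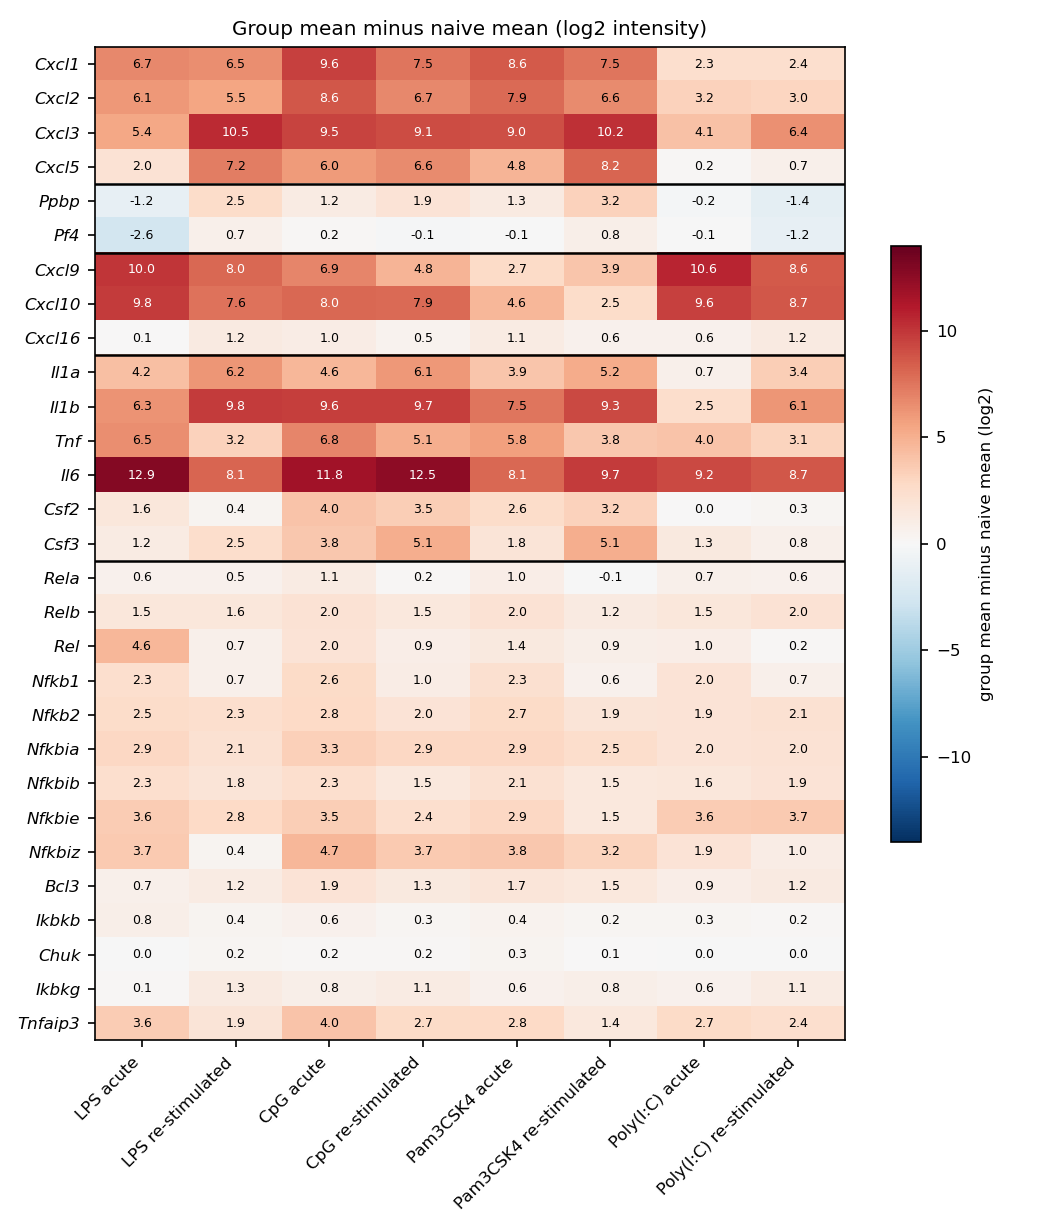
Difference of each group mean from the naive mean (log2 intensity, color and printed value) for the 4 chemokines and genes of their cluster, other CXC chemokines, cytokines and the NF-κB list, by group. Cxcl3 and Il1b stand near 10 in the LPS re-stimulated column while Il6 drops from 12.9 to 8.1; Cxcl5 and Cxcl9 were not above background in naive cells.

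Of 10 regulators of mRNA stability, with LPS 3 rose and 2 fell, where 13.2% of all probes went each way, with CpG 2 rose and 2 fell, with Pam3CSK4 none was called (2 higher and 1 lower in the fit of all 9 groups) and with Poly(I:C) 1 rose and 2 fell. Zfp36l1 and Zfp36l2, relatives of the AU-rich element binding protein tristetraprolin, fell by 4.23 and 3.59 with LPS, by 2.75 and 2.92 with CpG and by 2.82 and 2.63 with Poly(I:C). Zc3h12a, which encodes a ribonuclease of inflammatory mRNAs, rose by 2.68 with LPS. Zfp36, tristetraprolin itself, rose by 2.81 with CpG, and Mapkapk2, which encodes a kinase acting on it, rose by 1.61 with Poly(I:C). On LPS re-stimulation Zfp36l2 (2.85) and Zfp36l1 (2.34) rose and Zfp36 fell by 1.70. Zc3h12a fell by 0.89 there. The fit of all 9 groups called neither Zfp36l1 nor Zc3h12a in that comparison. On CpG re-stimulation Mapkapk2 fell by 0.90, and none was called with the other ligands. Against naive cells, CpG re-stimulation raised 2 and lowered 2, Poly(I:C) lowered 1, and LPS and Pam3CSK4 changed none past the threshold.

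The last lists held 4 genes of the leukotriene B4 pathway, another neutrophil attractant, and 4 proteases that can cut CXC chemokines. Alox5ap, which helps 5-lipoxygenase to its substrate, fell by 0.81 with acute LPS, the only call of both lists in the acute groups. On LPS re-stimulation Ltb4r1, the leukotriene B4 receptor, rose by 6.11 and Alox5ap by 0.67, and Mmp9, a gelatinase, fell by 2.72, the last not called in the fit of all 9 groups. On Poly(I:C) re-stimulation Alox5ap fell by 1.08 and Mmp12, macrophage elastase, by 2.51. With CpG and Pam3CSK4 none was called. Against naive cells 1 protease was lower after re-stimulation with each ligand, and 1 leukotriene gene was lower with Poly(I:C), where between 2.39% and 6.45% of all probes fell.

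Genes whose values were most like each chemokine over the 25 arrays differed between the pairs. For Cxcl1 they were Ankrd33b (r = 0.94), Stard5 (0.94), Zc3h12c (0.93), Zc3h12a (0.91) and Phlda1 (0.91). For Cxcl2 they were Ankrd33b (0.94), Zc3h12c (0.93), Stard5 (0.93), Ets2 (0.92) and Nfkbia (0.91), 3 of them shared with Cxcl1. For Cxcl3 they were Slc7a11 (0.96), the cystine transporter, Il1b (0.94), Gm10661 (0.92), Il1f9 (0.91) and Itga5 (0.90). For Cxcl5 they were U90926 (0.88), Il1b (0.85), Ppfia3 (0.85), Accn3 (0.84) and Il4ra (0.84). Il1b was common to Cxcl3 and Cxcl5.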

How the data were processed

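Probes were chosen by gene symbol, and the genes and all gene lists were chosen with earlier results of these data known. Arrays were read with Agilent Feature Extraction 10.7.3.1. The authors corrected the intensities by the RMA background method, quantile-normalized them and deposited log2 values for 25 arrays. They left out 2 arrays for low quality. The deposited scanner files give median and mean spot intensity, local background and flags, which were used here for detection, saturation (no chemokine spot was saturated) and the alternatives. Values made again from the intensities differed from the deposited log2 values by a median of 0.0355. Array signals give no read depth, and the number of arrays limits precision.

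Each comparison was a limma 3.58.1 fit (R 4.3.3) of the arrays of 2 groups, restricted to probes that 2 or more arrays of 1 of the groups detected well above background, with Benjamini-Hochberg adjustment over all probes tested. A call needed an adjusted p below 0.05 and a change of at least 1.5-fold. Where a probe was above background on no array of the dim group, an "at least" fold was set against, on each of its arrays, the lowest signal among probes above background or the probe's own, whichever was higher. Differences of changes between ligands came from 1 fit of all 9 groups. Differences of changes between genes were chosen after the values were seen and are given without a test. The fits were tested on simulated data. Named list genes were all of the cluster ligands and receptors and, of other lists, at most the 3 called genes with the largest changes, and genes alike were the 5 with the highest Pearson r over the 25 arrays. Further genes, such as markers beside a result, were named after their values were seen.

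Same-numbered arrays share a slide, apart from those of LPS acute. Comparisons with LPS left aside, their deviations from group means correlated at 0.12 to 0.71 in the CpG and Poly(I:C) comparisons. This range includes re-stimulated Pam3CSK4 with naive, CpG and Poly(I:C) cells, so the number was taken to pair these arrays. For LPS acute the correlations were 0.009 to 0.038 against naive, -0.199 to -0.021 against CpG acute and -0.099 to 0.038 against Poly(I:C) acute. LPS re-stimulated and Pam3CSK4 acute offer 2 pairs only. Alternatives were the replicate block, median scaling, normexp background, no detection filter, joint fits of 4 or 9 groups and a slide as random block. Others were all 27 arrays, each array left out in turn, values made again from the intensities and the processed signal minus its 75th percentile. Leaving out slide 3 was added after the data were seen, as was the use of each probe's own variance in the median-scaled fits against naive cells, where limma's prior degrees of freedom were infinite.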

Additional observations from a re-analysis of the deposited data

Results flagged for a closer look

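The 2 arrays that the authors left out for low quality read above every naive array for the 4 chemokines when the 27 arrays were normalized together. How many of all probes did so was not counted. On LPS re-stimulated replicate 3, Cxcl1 read 12.08 (highest naive array 9.22), Cxcl2 11.79 (9.83), Cxcl3 11.93 (6.00) and Cxcl5 3.63 (2.71), in log2 intensity. On this array 92.3% of probes were above background, so the flag says little there. Its Cxcl5 reading was lower than that of CpG acute replicate 3, 4.04 in the same normalization, which was not above background. On Pam3CSK4 acute replicate 2, Cxcl1 read 16.22, Cxcl2 14.69, Cxcl3 14.96 and Cxcl5 6.80, all above the same naive arrays. There 99.9% of probes were above background and 22.6% of spots were marked as non-uniform. The cause of the high background shares was not tested.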

How the results depend on the processing

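Values are the number of chemokine changes called. No called change reversed its direction under the alternatives run. Of the changes of single chemokines under the alternatives, 1741 stayed on the same side of the threshold, 150 were no longer called and 126 became called. Of the 1741, 82 turned sign, all of them changes that were not called. With acute LPS the count was 3 or 4 under every alternative but median scaling, where it was 0. With the replicate block, CpG acute against naive gave 0, CpG re-stimulated against acute 1, Poly(I:C) re-stimulated against acute 1, LPS, Pam3CSK4 and Poly(I:C) re-stimulated against naive 4, 0 and 0, and the acute ligand pairs 1. With median scaling, LPS and CpG acute gave 0, re-stimulated LPS, CpG, Pam3CSK4 and Poly(I:C) against naive 0, 1, 0 and 0, and the acute pairs 11. In its 8 fits against naive cells limma's prior degrees of freedom were infinite, which gives every probe 1 common variance, so each probe was tested with its own variance there, a choice made after the data were seen and one with fewer degrees of freedom than the other fits. In 1 fit of all 9 groups, Pam3CSK4 acute gave 3 (4 with the slide as a random block), Poly(I:C) acute 2, CpG re-stimulated against acute 0, LPS and Poly(I:C) re-stimulated against naive 4 and 2, and the acute pairs 9, the rest alike with the random block. With normexp, Poly(I:C) acute gave 1, LPS re-stimulated against naive 4 and the ligand differences in change 1, as did a fit of 4 groups for the latter. With all 27 arrays, LPS re-stimulated against acute and against naive gave 0. Without a detection filter, CpG re-stimulated against acute gave 0, Pam3CSK4 re-stimulated against naive 2 and the re-stimulated pairs 3. Without slide 3, Pam3CSK4 acute gave 1, Poly(I:C) acute 3, LPS and Poly(I:C) re-stimulated against naive 4 and 3, the acute pairs 18, the re-stimulated pairs 11 and the differences in change 8. The genes of the other lists were recomputed only in the fit of all 9 groups, where Cxcr2, Rela and Csf2 with acute LPS and Cxcl9, Nfkbia, Nfkbie, Zfp36l1, Zc3h12a, Csf2, Il1a and Mmp9 on LPS re-stimulation were no longer called, while the other calls of these lists held and further genes were called. Apart from the settings that use fewer or more arrays or probes, the cause was not tested.

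Leaving out 1 array at a time gave, for acute against naive cells, 3 to 4 calls with LPS, 0 to 3 with CpG and 0 to 2 with either of Pam3CSK4 and Poly(I:C). For re-stimulated against acute it gave 2 to 2 with LPS, 0 to 3 with CpG, 0 to 0 with Pam3CSK4 and 0 to 0 with Poly(I:C). For re-stimulated against naive it gave 0 to 4 with LPS, 2 to 4 with CpG, 0 to 4 with Pam3CSK4 and 0 to 2 with Poly(I:C). Acute pairs ranged from 1 to 9, re-stimulated pairs from 1 to 12 and differences in change from 0 to 2. The CpG acute calls fell to 0 without naive replicate 2 or CpG acute replicate 1 or 2, and to 1 without naive replicate 1. The CpG re-stimulated calls fell to 0 without CpG acute replicate 1 or 2 or CpG re-stimulated replicate 1 or 2, and to 1 without CpG re-stimulated replicate 3. Against naive, the LPS calls fell to 0 without either re-stimulated array, the Pam3CSK4 calls to 0 without naive replicate 2 and to 1 or 2 without naive replicate 1 or any re-stimulated array, the CpG calls to 2 without naive replicate 2 or any re-stimulated array, and the Poly(I:C) call to 0 without naive or re-stimulated replicate 1 or 2. Single arrays of slide 3 raised the pair counts most when left out: acute pairs to 9 without CpG acute or Poly(I:C) acute replicate 3 and 8 without Pam3CSK4 acute replicate 3, and re-stimulated pairs to 12 without Poly(I:C) re-stimulated replicate 3. Over all these alternatives, single arrays left out included, the number of probes called ranged from 39 to 10963 for LPS acute against naive (7918 as reported), 9 to 6061 for CpG acute (1598), 8 to 6744 for Poly(I:C) acute (1713) and 0 to 3713 for Pam3CSK4 acute (0). For re-stimulated against acute it ranged from 1793 to 11013 with LPS (9772), 43 to 3140 with CpG (916), 0 to 1692 with Pam3CSK4 (0) and 0 to 6566 with Poly(I:C) (1338). Against naive it ranged from 0 to 6461 (1581), 266 to 7632 (3691), 0 to 6870 (1497) and 0 to 7698 (2565) for re-stimulated LPS, CpG, Pam3CSK4 and Poly(I:C).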
